A study of Rattus norvegicus with 8 samples.

Results

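Mature astrocytes keep the space around neurons in order with the products of 10 genes that were followed here in the hypothalamus of F344 rats after RA. They are *Slc1a2*, *Slc1a3*, *Glul*, *Aqp4*, *Kcnj10*, *Gja1*, *Gjb6*, *Slc4a4*, *Aldh1l1* and *Fgfr3*. The list was chosen by name, with earlier results of these data known. All 10 had a probe on the array, out of 15159 genes that could be named there. Astrocytes take up the glutamate released at synapses and turn it into glutamine, carry potassium and water away from active neurons, and are joined into a network by gap junctions. The messages of these genes are used as markers of resting, homeostatic astrocytes, whereas reactive astrocytes are marked by *Gfap*, *Vim* and similar genes.

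The rats were male F344N rats held in SD, the short photoperiod in which this strain grows and eats less. RA, all-trans retinoic acid, was injected into the third ventricle of 4 rats and vehicle into 4 others, and hypothalamic tissue blocks including the arcuate nuclei were taken 1 day later. The labels of the arrays give RA as 1e-05 M and name saline as the vehicle, whereas the study's methods give a 10-fold higher concentration and DMSO in saline. Age was not given in the sources used here. RNA of an RA rat and RNA of a vehicle rat, labelled in Cy3 and Cy5, were hybridised together on each of 8 two-colour Agilent arrays. RA was in Cy5 on arrays 1, 3, 6 and 8 and in Cy3 on arrays 2, 4, 5 and 7. The slide had 2 rows, with arrays 1 to 4 in row 1 and the rest in row 2. Neither the labels nor the study's text say which arrays carry the same RNA, and with 4 rats in each group the 8 arrays are not 8 independent comparisons. The rows may thus hold different rats, so a difference between rows cannot be told apart from a difference between rats.

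Each value is the log2 of the level after RA divided by that after vehicle on the same array, after loess normalisation, and is positive where the message was higher after RA. A standard error and a p value come from limma, fitted to the means of 4 pairs of arrays with opposite dyes in each of the 24 possible pairings. The largest p of the 24 was kept, and the threshold is that of the study's methods, an unadjusted p of 0.01. The pairing of arrays 1 with 2, 3 with 4, 6 with 7 and 8 with 5 had the highest correlation within pairs, 0.317. It also had the fewest probes under this threshold in limma, 1081. Whether its pairs carry the same RNA was not tested. The share of probes well above background was 57.4% to 74.6% for RA and 61.2% to 74.5% for vehicle. On each of the 8 arrays it was higher in the Cy5 channel. Arrays 6 and 7 stood apart, because 10 choroid plexus genes had a median log2 ratio of -1.37 and -1.42 there, against 0.08 to 0.46 on the other 6 arrays. On arrays 5 and 8 the median of 8 genes of meninges and fibroblasts was -0.61 and -0.76, against -0.08 to 0.46 on the others. For the 4 members with the lowest means and for the lists with a gene past the threshold, values without arrays 6 and 7 and without arrays 8 and 5 are given, each couple holding 1 array of each dye order. These fits rest on fewer pair means than the full fit, so a p can rise where the fold change does not shrink. In a tissue block, fewer cells of a type and less RNA per cell cannot be told apart. As a check of the tissue, 9 of 10 defining astrocyte markers had a named probe, and all 9 were well above background in both channels of all 8 arrays. *Sox9* was the marker without a named probe.

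Of the 10 genes, 2 were lower after RA at an unadjusted p under 0.01 and 0 were higher (limma). They were *Slc4a4*, the sodium bicarbonate cotransporter, and *Gja1*, which encodes the main astrocyte connexin, Cx43. Among all named genes 0.792% were lower and 3.52% higher at this threshold. The other astrocyte connexin gene, *Gjb6*, had the lowest mean of the list, but its arrays disagreed. The glutamate transporter genes, glutamine synthetase, *Aqp4* and *Kcnj10* had log2 fold changes between -0.06 and 0.07, though *Kcnj10* was near the background and measured less well. No member had an adjusted p under 0.05 over 30367 probes (0 in limma; 3 members had an unadjusted p under 0.05, and the lowest adjusted p was 0.283). For all named genes that number was likewise 0, and 13.1% of them had an unadjusted p under 0.05. Without arrays 6 and 7, without arrays 8 and 5, and in row 1 alone the number of members past the threshold of 0.01 was 0 in limma, whereas it was 4 in row 2 alone. The share of all named genes past the threshold was not taken in these fits. Whether the change in number is particular to the members thus cannot be told.

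A mean log2 ratio below 0 was found in 7 of the 10 genes, against 52.4% of all named genes. The median log2 fold change of the 10 was -0.09, and that of all named genes was -0.0046. The median of the 10 was below 0 on all 8 arrays and ran from -0.21 on array 1 to -0.01 on array 4. *Gja1* and *Slc4a4* were below 0 on all 8 arrays, as were 1.78% of the named genes with a value on every array.

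**Figure D1:**
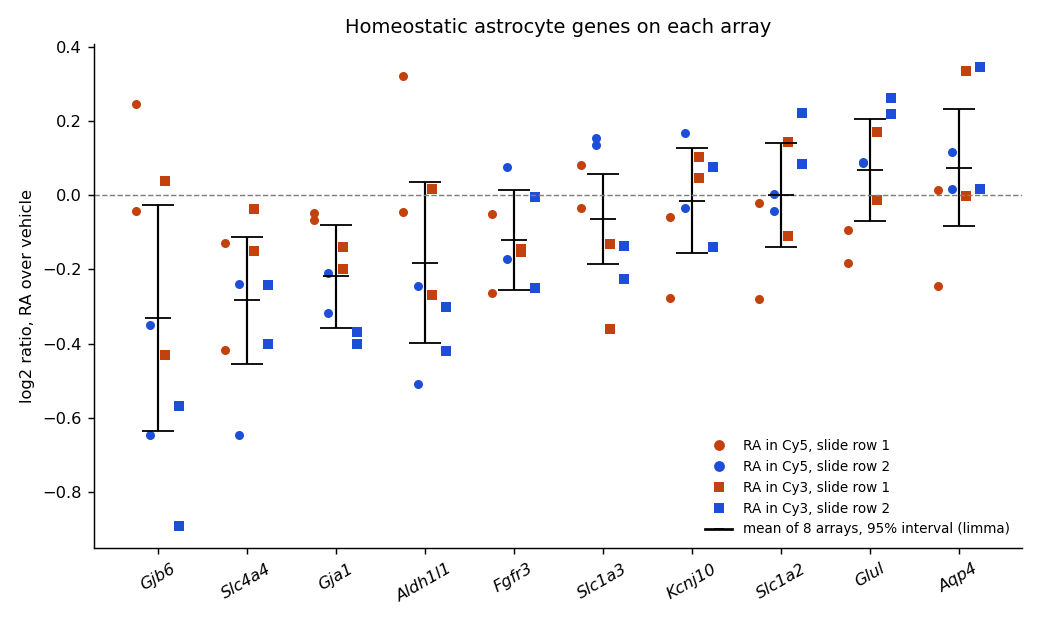
Log2 ratio of RA over vehicle (vertical axis) of each of the 10 genes on each of the 8 arrays, with circles for RA in Cy5, squares for RA in Cy3, orange for row 1 of the slide and blue for row 2, and with the mean and its 95% interval from limma in black. Genes are ordered by their mean, from -0.33 for *Gjb6* to 0.07 for *Aqp4*, and all 8 points lie below 0 only for *Slc4a4* and *Gja1*.

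To show the start of the genes with the lowest means, the promoter windows of *Gja1*, *Gjb6* and *Slc4a4* are printed from RefSeq (GRCr8). RA acts through nuclear receptors that bind repeats of a hexamer, so each window of 300 bases (250 before the start of transcription and 50 after it) was searched on both strands for the hexamer AGGTCA, for its variants GGGTCA as well as AGTTCA, and for the last variant, GGTTCA. No 6 bases can match more than 1 of these. Capitals mark a match. *Gjb6* has 2 windows, the first at chr15:35410089-35410388 and the second at chr15:35408913-35409212, both on the minus strand. *Gja1* has its window at chr20:36302314-36302613 on the plus strand, and *Slc4a4* at chr14:19468233-19468532 on the minus strand.
Gja1: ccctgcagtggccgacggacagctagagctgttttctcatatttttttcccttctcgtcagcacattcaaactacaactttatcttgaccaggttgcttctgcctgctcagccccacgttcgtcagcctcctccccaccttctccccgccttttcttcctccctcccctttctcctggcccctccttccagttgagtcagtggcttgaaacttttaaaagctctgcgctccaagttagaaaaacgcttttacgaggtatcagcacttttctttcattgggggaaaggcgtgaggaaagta
Gjb6, first window: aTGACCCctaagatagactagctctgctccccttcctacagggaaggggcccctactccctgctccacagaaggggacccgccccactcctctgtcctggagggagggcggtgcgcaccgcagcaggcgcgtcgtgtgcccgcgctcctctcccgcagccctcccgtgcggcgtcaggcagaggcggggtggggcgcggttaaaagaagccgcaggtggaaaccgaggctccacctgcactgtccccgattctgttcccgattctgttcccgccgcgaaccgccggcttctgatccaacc
Gjb6, second window: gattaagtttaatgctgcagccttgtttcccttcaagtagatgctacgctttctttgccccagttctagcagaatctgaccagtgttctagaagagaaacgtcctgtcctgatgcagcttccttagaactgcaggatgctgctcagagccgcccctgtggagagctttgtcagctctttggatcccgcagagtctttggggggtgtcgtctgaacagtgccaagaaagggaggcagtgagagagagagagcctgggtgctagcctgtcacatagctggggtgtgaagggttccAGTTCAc
Slc4a4: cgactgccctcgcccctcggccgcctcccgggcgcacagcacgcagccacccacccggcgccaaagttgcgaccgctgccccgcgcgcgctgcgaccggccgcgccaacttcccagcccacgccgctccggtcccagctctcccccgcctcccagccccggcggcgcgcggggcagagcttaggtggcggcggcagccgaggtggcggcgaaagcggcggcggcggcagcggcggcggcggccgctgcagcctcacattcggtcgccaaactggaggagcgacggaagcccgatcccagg
Neither *Gja1* nor *Slc4a4* held a match, and each *Gjb6* window held 1. The capitals in the first *Gjb6* window are GGGTCA read on the other strand, at position -249 from the start, and those in the second are AGTTCA, at position 44 of the transcript. At least 1 of the 4 hexamers was found in 44.4% of 33469 such windows of the genome, and in 10 of the 16 windows of the 10 members. The windows of *Slc1a3* overlap and share 1 match, which is thus counted more than once. By gene, 6 of the 10 members had a match, and no share by gene was taken for the genome. A direct repeat of these hexamers spaced by 2 or by 5 bases, the arrangement that receptors for RA are known to bind, was in 0.17% and 0.382% of all windows and in 0 of the 16. A match is only a match of letters, and its absence from a window says nothing about the receptor.

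Astrocyte gap junctions are built from Cx43, the product of *Gja1*, and Cx30, the product of *Gjb6*. *Gja1* had log2 ratios of -0.05, -0.20, -0.07 and -0.14 on arrays 1 to 4, and of -0.40, -0.21, -0.37 and -0.32 on arrays 5 to 8. Every array was thus below 0, and all 4 arrays of row 2 were below all 4 of row 1. Its mean was -0.22 ± 0.06 (SE, 95% interval -0.36 to -0.08), a level 0.859 times that after vehicle. The unadjusted p from limma was 0.00697, the largest of the 24 pairings, all of which were under 0.01, and the adjusted p was 0.289. When the signs of the pair means were flipped in all ways, the exact permutation test (two-sided) returned p = 0.125 in each pairing, which is the smallest value for 4 pairs. With every array below 0 this value is fixed, so it adds nothing to the count of arrays. The probe was printed as 10 spots, and the SD of these spots within an array was 0.02 to 0.07, below the SD of 0.13 between arrays. On 6 of the 8 arrays all 10 spots were below 0.

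The mean of *Gja1* was -0.11 in row 1 (limma, unadjusted p = 0.122) and -0.32 in row 2 (limma, unadjusted p = 0.0064). Each of these p values rests on 2 pair means, with both arrays of a pair taken from the same row, which the sources do not state. It was -0.16 where RA was in Cy5 and -0.28 where it was in Cy3, so the sign was the same in both dye orders. Without arrays 6 and 7 the log2 fold change was -0.20 (limma, unadjusted p = 0.0251), and without arrays 8 and 5 it was -0.17 (limma, unadjusted p = 0.0335). The fall therefore no longer passed the threshold of 0.01 when either of these couples was left out.

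*Gjb6* spread most among the 10 genes. Its log2 ratios were -0.04, -0.43, 0.24 and 0.04 on arrays 1 to 4 and -0.57, -0.65, -0.89 and -0.35 on arrays 5 to 8. Row 2 was low on every array, whereas row 1 lay on both sides of 0. Averaged over the arrays it was -0.33 ± 0.13 (SE, 95% interval -0.64 to -0.03). In limma the unadjusted p was 0.0373 and the adjusted p 0.42. Depending on which arrays were taken as pairs, the unadjusted p from limma went down to 2.08e-05, and it was under 0.01 in 12 of the 24 pairings. The SD between arrays was 0.38, whereas the SD of the 9 or 10 spots used within an array was 0.03 to 0.08, so the disagreement was between arrays and not between spots. The row means were -0.05 for row 1 (limma, unadjusted p = 0.609) and -0.61 for row 2 (limma, unadjusted p = 0.000736), again with 2 pair means taken within a row. Without arrays 6 and 7 the log2 fold change was -0.18, and its unadjusted p in limma was 0.14, and without arrays 8 and 5 it was -0.29 (limma, unadjusted p = 0.105). The mean of *Gjb6* was -0.20 on the arrays with RA in Cy5 and -0.46 on the others.

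Other gap junction genes, namely further connexins, pannexins and the scaffold *Tjp1*, had a median log2 fold change of -0.03 over the 10 of 11 genes that were measured. None of them passed an unadjusted p of 0.01 in limma (0 lower and 0 higher, with 1 at an unadjusted p under 0.05).

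*Slc4a4* encodes the electrogenic cotransporter that moves sodium and bicarbonate together across the astrocyte membrane and so buffers acid. Its log2 ratios were -0.42, -0.15, -0.13 and -0.04 on arrays 1 to 4 and -0.24, -0.65, -0.40 and -0.24 on arrays 5 to 8. All arrays were below 0, with the lowest on array 6 and the highest on array 4, and the rows overlapped. On average this was -0.28 ± 0.07 (SE, 95% interval -0.45 to -0.11), a level 0.822 times that after vehicle. The unadjusted p from limma was 0.00562 and under 0.01 in all 24 pairings, and the adjusted p was 0.283. The exact sign-flip permutation p was 0.125 in each pairing, again the smallest value for 4 pairs. It is fixed once all 8 arrays are below 0. The mean was -0.36 where RA was in Cy5 and -0.21 where it was in Cy3, and -0.18 in row 1 and -0.38 in row 2. Without arrays 6 and 7 it was -0.20 (limma, unadjusted p = 0.0131), and without arrays 8 and 5 it was -0.30 (limma, unadjusted p = 0.0131).

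This probe of *Slc4a4* was a single spot. A dimmer probe to the same transcript gave -0.16 ± 0.09 (SE; limma, unadjusted p = 0.0975), with 6 of 8 arrays below 0. The mean of that probe was 0.02 in row 1 and -0.35 in row 2. With the mean over both probes the log2 fold change of *Slc4a4* was -0.22 and its unadjusted p in limma was 0.0226, so the call depended on the choice of the probe.

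Glutamate is cleared by the products of *Slc1a2* and *Slc1a3*, and glutamine synthetase, the product of *Glul*, turns it into glutamine. *Slc1a2* had log2 ratios of -0.28, 0.14, -0.02 and -0.11 on arrays 1 to 4 and 0.09, -0.04, 0.22 and 0.00 on arrays 5 to 8. The arrays lay evenly on both sides of 0. Their mean was 0.00 ± 0.06 (SE, 95% interval -0.14 to 0.14, limma, unadjusted p = 0.997). *Slc1a3* had log2 ratios of 0.08, -0.13, -0.04 and -0.36 on arrays 1 to 4 and -0.14, 0.15, -0.23 and 0.14 on arrays 5 to 8. Its 4 arrays with RA in Cy3 were all below its 4 arrays with RA in Cy5, with means of -0.21 and 0.08. The log2 fold change over all 8 arrays was -0.06 ± 0.05 (SE, 95% interval -0.19 to 0.06, limma, unadjusted p = 0.248). *Glul* had log2 ratios of -0.18, -0.01, -0.09 and 0.17 on arrays 1 to 4 and 0.22, 0.09, 0.26 and 0.09 on arrays 5 to 8. Row 2 was above 0 on all 4 arrays and row 1 on 1. On average *Glul* was at 0.07 ± 0.06 (SE, 95% interval -0.07 to 0.21, limma, unadjusted p = 0.289). A p above the threshold does not show that these levels were equal.

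For both transporters a further probe also had a mean near 0, with the opposite dye pattern. The other probe of *Slc1a2*, to another of its transcripts, had a mean of 0.14 where RA was in Cy5 and of -0.14 where it was in Cy3, where the brightest probe had -0.08 and 0.09. Its log2 fold change over all 8 arrays was -0.0005. The other probe of *Slc1a3* had -0.15 where RA was in Cy5 and 0.11 where it was in Cy3, where the brightest had 0.08 and -0.21, and its log2 fold change was -0.02. A single dye order would thus have given either sign, according to the probe.

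**Figure D2:**
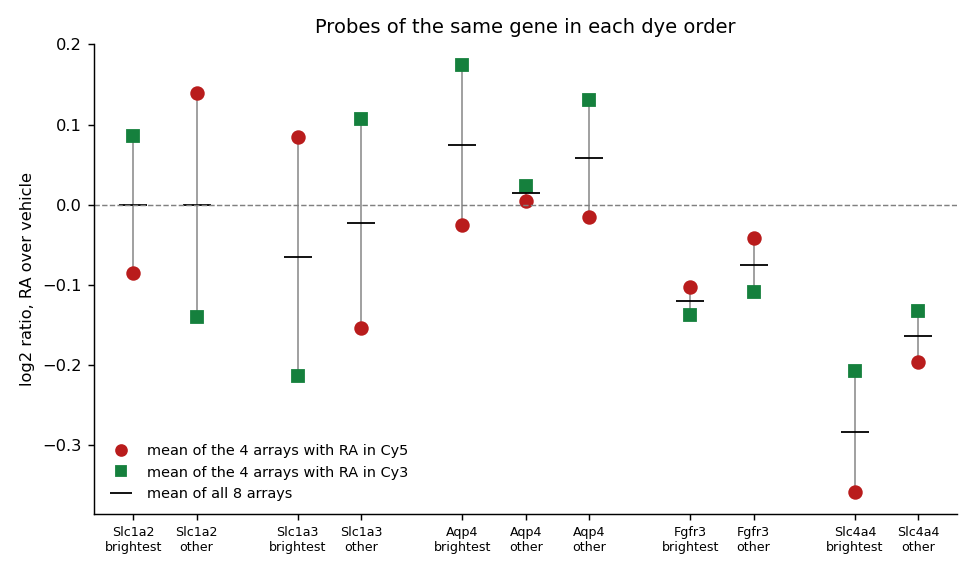
Mean log2 ratio of RA over vehicle (vertical axis) on the 4 arrays with RA in Cy5 (red circles), on the 4 with RA in Cy3 (green squares) and on all 8 (black bars), for each probe of the 5 members that had more than 1 probe. The red and green marks change places between the probes of *Slc1a2* and of *Slc1a3* while the black bars hardly move, and for *Slc4a4* all marks lie below 0.

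Further genes by which astrocytes handle glutamate, glutamine, GABA and glycine had a median log2 fold change of -0.07, with 10 of 12 below 0. In limma 1 of the 12 was lower at an unadjusted p under 0.01 and 0 were higher. It was *Glud1*, glutamate dehydrogenase, which fell on 8 of 8 arrays and had a mean log2 ratio of -0.21 ± 0.05 (SE; limma, unadjusted p = 0.00542). *Glud1* no longer passed without arrays 6 and 7, at -0.16 (limma, unadjusted p = 0.0153), or without arrays 8 and 5, at -0.22 (limma, unadjusted p = 0.0141). Without arrays 8 and 5 its fall was no smaller than with all 8 arrays. *Slc38a5*, named after its value was seen, was above 0 on 8 of 8 arrays, at 0.52 (limma, unadjusted p = 0.0104). An unadjusted p under 0.05 in limma was found for 3 of the 12 genes. In limma 0 genes of this list were lower and 1 higher at the threshold without arrays 6 and 7, and 0 and 0 without arrays 8 and 5. Genes by which neurons handle glutamate and GABA had a median of -0.11, with 8 of 8 below 0 and none past the threshold (0 in limma, and 1 under an unadjusted p of 0.05).

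*Aqp4* encodes the water channel of astrocyte endfeet and *Kcnj10* the inwardly rectifying potassium channel that takes up potassium. *Aqp4* had log2 ratios of -0.25, -0.00, 0.01 and 0.34 on arrays 1 to 4 and 0.35, 0.02, 0.02 and 0.12 on arrays 5 to 8. Arrays 4 and 5, both with RA in Cy3, were high, array 1 was low and the other 5 lay between -0.00 and 0.12. The log2 fold change was 0.07 ± 0.07 (SE, 95% interval -0.08 to 0.23, limma, unadjusted p = 0.301). Further probes of *Aqp4* gave 0.01 and 0.06. *Kcnj10* had log2 ratios of -0.28, 0.10, -0.06 and 0.05 on arrays 1 to 4 and -0.14, 0.17, 0.08 and -0.03 on arrays 5 to 8. Its mean was -0.01 ± 0.06 (SE, 95% interval -0.16 to 0.13, limma, unadjusted p = 0.816). *Kcnj10* was the only member near the background, and was well above it on 4 of 8 arrays in the RA channel and on 4 of 8 in the vehicle channel. Both channels passed on array 1 alone, and neither did on array 4. The SD between its spots on an array was up to 0.45, so its ratio was measured less well than those of the other members.

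Other genes of ion, water and bicarbonate handling had a median log2 fold change of -0.03 over 12 genes, with 0 lower and 0 higher at an unadjusted p under 0.01 in limma, and 2 under an unadjusted p of 0.05. These 2, named after their values were seen, were *Kcnj16*, which forms channels with the product of *Kcnj10*, at -0.21 (limma, unadjusted p = 0.0147), and *Slc16a1*, a transporter of lactate, at 0.38 (limma, unadjusted p = 0.0136). The dystrophin complex, which holds *Aqp4* protein at the endfeet, had a median of -0.04 over the 8 of 12 genes that were measured, again with 0 lower and 0 higher in limma, and 2 under an unadjusted p of 0.05.

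*Aldh1l1* encodes the folate enzyme that is a widely used marker of astrocytes in general, and *Fgfr3* a receptor for fibroblast growth factors that astrocytes and their precursors carry. *Aldh1l1* had log2 ratios of -0.05, -0.27, 0.32 and 0.02 on arrays 1 to 4 and -0.42, -0.51, -0.30 and -0.25 on arrays 5 to 8. As for *Gjb6*, array 3 was highest and all of row 2 was low, with means of 0.01 in row 1 and -0.37 in row 2. Averaged over all arrays it was -0.18 ± 0.09 (SE, 95% interval -0.40 to 0.04, limma, unadjusted p = 0.0889). Without arrays 6 and 7 *Aldh1l1* was at -0.11 (limma, unadjusted p = 0.303), and without arrays 8 and 5 at -0.13 (limma, unadjusted p = 0.258). *Fgfr3* had log2 ratios of -0.26, -0.15, -0.05 and -0.14 on arrays 1 to 4 and -0.25, 0.08, -0.00 and -0.17 on arrays 5 to 8. It was below 0 on 7 of 8 arrays, and array 6 was the exception. The mean of *Fgfr3* was -0.12 ± 0.06 (SE, 95% interval -0.25 to 0.01, limma, unadjusted p = 0.0714). A further probe of *Fgfr3* gave -0.07.

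Folate enzymes other than *Aldh1l1* had a median log2 fold change of 0.16 over the 8 of 11 genes that were measured, with 7 above 0. None of them passed an unadjusted p of 0.01 in limma (0 lower and 0 higher), and 4 had an unadjusted p under 0.05. The folate receptor gene *Folr1* stands both in this list and in that of the choroid plexus. Among FGF receptors, ligands and feedback genes the median was -0.03 over the 15 of 17 genes that were measured, and 2 were higher at an unadjusted p under 0.01 in limma. At an unadjusted p under 0.05 there were 7. The rest of these, named after their values were seen, were *Fgfr2* at -0.18, *Fgf9* at -0.16, *Fgf18* at -0.21, *Spred1* at -0.14 and *Dusp6* at 0.35. *Fgfrl1*, a receptor that lacks the kinase, rose by a log2 fold change of 0.89 (SE 0.18, limma, unadjusted p = 0.00124). *Fgf2*, a ligand that astrocytes make, rose by 0.29 (SE 0.07, limma, unadjusted p = 0.00369). Both were above 0 on 8 of 8 arrays. When either couple of arrays was left out *Fgfrl1* still passed, whereas *Fgf2* did not, with an unadjusted p in limma of 0.0122 without arrays 6 and 7 and of 0.0155 without arrays 8 and 5.

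Ranked by the mean ratio, the order of the 10 genes was *Gjb6*, *Slc4a4*, *Gja1*, *Aldh1l1*, *Fgfr3*, *Slc1a3*, *Kcnj10*, *Slc1a2*, *Glul* and *Aqp4*. No neighbours in this order differed beyond their spread, since the differences between neighbours were 0.01 to 0.07 and the SD of these differences over arrays was 0.13 to 0.32. The distance between members further apart in the order was larger. *Slc4a4* was below *Aqp4* on 8 of 8 arrays, by 0.36 on average with an SD of 0.20, and below *Glul* and *Kcnj10* on 8 of 8 arrays too. This holds for the single-spot probe of *Slc4a4* only. Its dimmer probe, at -0.10 on array 1 and 0.06 on array 3, was above *Aqp4* there, at -0.25 and 0.01. The genes compared were taken from an order made of the same values, and *Kcnj10* was near the background.

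The 10 genes were then set beside other genes of astrocytes and of the other cells in the block. These lists too were written with earlier results of these data known. In a wider list of astrocyte identity genes the median log2 fold change was -0.08 over the 17 of 20 genes that were measured, of which 13 were below 0. In limma 1 was lower and 1 higher at an unadjusted p under 0.01, and 6 had an unadjusted p under 0.05. The rest of these 6, named after their values were seen, were *Cldn10* at -0.28, *S100b* at -0.22, *Bmpr1b* at -0.17 and *Ndrg2* at -0.16. *Pla2g7*, a phospholipase of astrocytes, was lower, with a log2 fold change of -0.22 (SE 0.06, limma, unadjusted p = 0.00852). *Fabp7*, the fatty acid binding protein of radial glia and tanycytes as well as astrocytes, was higher, with 0.47 (SE 0.09, limma, unadjusted p = 0.000773). *Pla2g7* was below 0 and *Fabp7* above 0 on 8 of 8 arrays. *Fabp7* still passed when either couple was left out, whereas *Pla2g7* did not, with an unadjusted p in limma of 0.0276 without arrays 6 and 7 and of 0.0298 without arrays 8 and 5.

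Genes of reactive astrocytes had a median log2 fold change of 0.82 over the 18 of 21 genes that were measured, and 13 of the 18 were higher at an unadjusted p under 0.01 in limma, with 0 lower. The 4 with the smallest p were *Cp*, the copper carrier ceruloplasmin, at 2.60, *Hspb1*, a small heat shock protein, at 2.21, *Timp1*, an inhibitor of metalloproteinases, at 2.19, and *Aspg*, an asparaginase, at 0.81. *Gfap*, the intermediate filament of astrocytes and one of the defining markers, was at 1.40 (SE 0.20, limma, unadjusted p = 0.000177). Each was above 0 on 8 of 8 arrays. Without arrays 6 and 7 the median of the list was 0.65 and 11 of its genes were higher at the same threshold. Without arrays 8 and 5 the median was 0.82 and 8 genes were higher, and these 5 genes passed in both fits. Within the list of defining markers, *Gfap* was thus high, *Gja1* was low and the median was -0.17.

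Neuron genes had a median log2 fold change of -0.14 over the 8 of 10 genes that were measured, and 2 were lower at an unadjusted p under 0.01 in limma, *Nefm* at -0.39 and *Nefl* at -0.30, both subunits of neurofilaments. Oligodendrocyte genes had a median of -0.19 over 10 genes, 9 of them below 0, and 2 were lower at the same threshold, *Opalin*, a myelin protein, at -0.27 and *Olig2*, a transcription factor, at -0.19. The neurofilament genes no longer passed without arrays 6 and 7, with an unadjusted p in limma of 0.0217 for *Nefm* and 0.0266 for *Nefl*, and *Olig2* no longer passed without arrays 8 and 5 (limma, unadjusted p = 0.0241). The medians of neuron and oligodendrocyte genes were thus below that of the homeostatic astrocyte genes, -0.09. Both lists had medians below 0 on all 8 arrays, from -0.19 to -0.05 for neurons and from -0.36 to -0.02 for oligodendrocytes. An unadjusted p under 0.05 in limma was found for 4 neuron genes and 7 oligodendrocyte genes. The median was -0.02 for oligodendrocyte precursors (5 genes), -0.02 for endothelium (8 genes) and -0.07 for tanycytes and ependyma (7 of 10 measured), with 0 genes past the threshold in each of these lists in limma (0, 1 and 0 at an unadjusted p under 0.05). Microglia genes had a median of 0.02 over 8 genes, with *Aif1* at 0.88 and *Itgam* at 0.87 higher and *Tmem119*, a marker of resting microglia, at -0.52 lower at an unadjusted p under 0.01 in limma. *Tmem119* just missed the threshold without arrays 6 and 7 (limma, unadjusted p = 0.0104) and without arrays 8 and 5 (limma, unadjusted p = 0.0101). Log2 of the summed intensity of the 10 homeostatic astrocyte genes ran from 15.65 to 16.45 for RA and from 15.59 to 16.49 for vehicle.

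**Figure D3:**
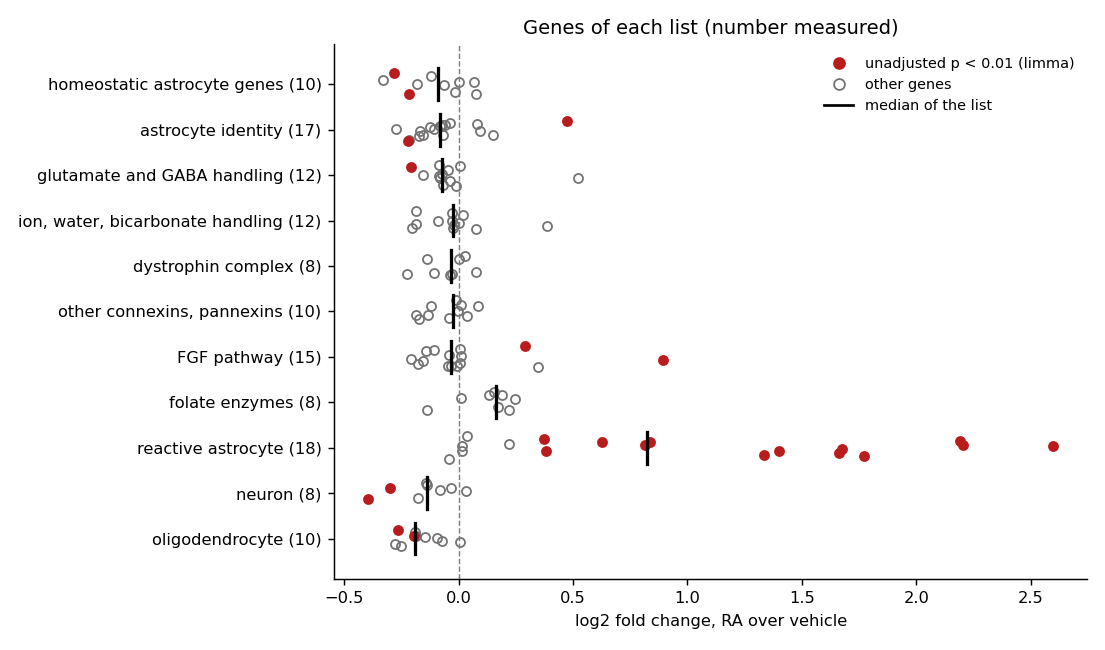
Log2 fold change of RA over vehicle (horizontal axis) of each measured gene in 11 lists (rows, with the number measured), in red at an unadjusted p under 0.01 in limma and open otherwise, with black bars at the medians. The 10 homeostatic astrocyte genes lie between -0.33 and 0.07, whereas the reactive astrocyte genes reach 2.60 and have a median of 0.82.

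*Gjb6*, *Aldh1l1*, *Gja1* and *Slc4a4* had lower means in row 2 than in row 1, whereas the other 6 members had higher means there. The median of the reactive astrocyte genes was 0.31, 0.27, 0.72 and 0.61 on arrays 1 to 4 and 0.89, 1.30, 1.46 and 0.78 on arrays 5 to 8, so that every array of row 2 was above every array of row 1. *Gjb6* was lowest on arrays 6 and 7, where the reactive astrocyte median was highest and the choroid plexus median lowest. On arrays 5 and 8 the 10 choroid plexus genes had medians of 0.27 and 0.46. Meninges and fibroblasts were at -0.61 and -0.76 there, erythrocyte genes at -0.90 and -0.70, and *Gja1* at -0.40 and -0.32. On array 7 *Gja1* was likewise low, at -0.37, whereas meninges and fibroblasts were at 0.02 and erythrocyte genes at 0.15. Over all arrays the choroid plexus median was -0.13, with 10 of 10 genes below 0 and 0 past the threshold of 0.01 in limma. Without arrays 6 and 7 it was 0.26, with 0 genes below 0 and 5 higher past that threshold. Without arrays 8 and 5 it was -0.33, with 10 genes below 0 and 1 lower past that threshold. Log2 of the summed intensity of these choroid plexus genes ran from 10.81 to 17.11 for RA and from 10.66 to 18.26 for vehicle, and 5 of the 10 were well above background on every array. For the 8 genes of meninges and fibroblasts the same quantity ran from 13.22 to 14.55 and from 13.59 to 14.71. Erythrocyte genes (3 of 4 measured) had medians from -0.90 on array 5 to 0.93 on array 3, the array on which *Gjb6* and *Aldh1l1* were highest. The part of other tissues in the block and of differences between rats in these values was not tested.

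**Figure D4:**
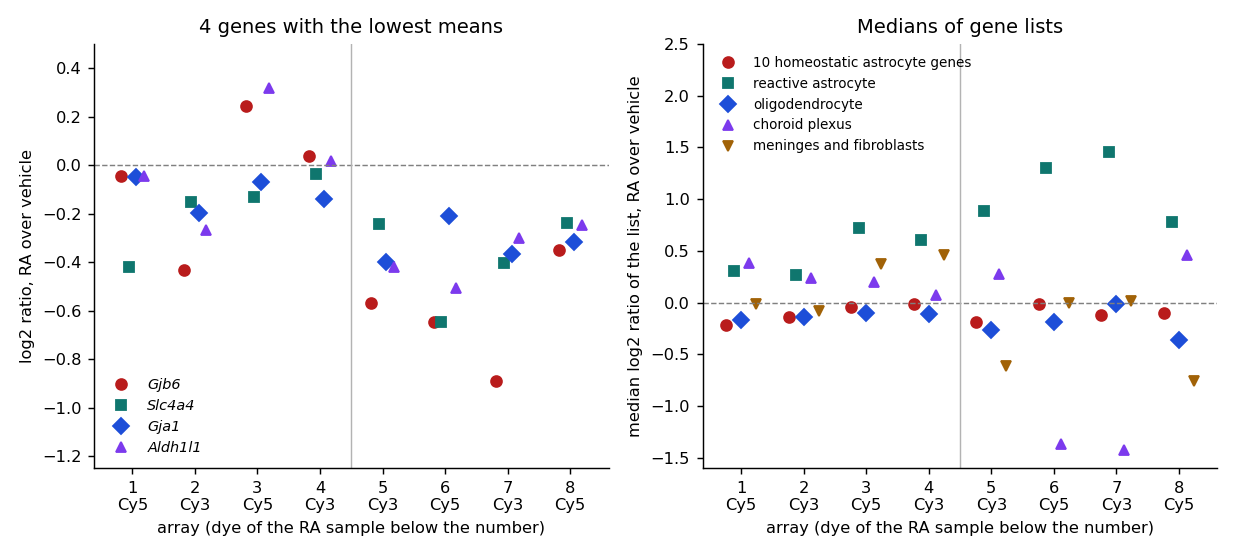
Left, log2 ratio of RA over vehicle (vertical axis) of *Gjb6*, *Slc4a4*, *Gja1* and *Aldh1l1* on arrays 1 to 8 (horizontal axis, with the dye of the RA sample), and right, the median log2 ratio of 5 gene lists on the same arrays, with a grey line between slide rows. On the left all points of arrays 5 to 8 are below 0, and on the right the choroid plexus list drops to -1.37 and -1.42 on arrays 6 and 7.

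Genes whose ratios over the 8 arrays were most like the median of the 10 members were found by the root mean square difference among 9453 genes well above background on every array. They were *Mageh1*, *Cep19*, *Kdr*, *Lias* and *Rabgef1*, with differences of 0.05 to 0.06 on the log2 scale against a median of 0.20 over all genes compared. Their log2 fold changes were -0.10, -0.06, -0.10, -0.10 and -0.11. Since the median of the members stayed close to 0 on each array, this measure picks genes that vary little. Of the members themselves *Fgfr3* was nearest to the median of the other 9, with a difference of 0.13, and *Gjb6* was farthest, with 0.47.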

How the data were processed

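RNA from hypothalamic blocks of RA- and vehicle-injected rats was compared on 8 two-colour Agilent arrays. For every spot the authors deposited the median intensity of Cy3 and of Cy5 on a linear scale. Beside it stands the log10 ratio that Agilent's software computes, also deposited. The authors further deposited normalised log2 ratios, whose columns run as RA over vehicle (correlation across probes 0.985 to 1.00 with loess ratios made without background correction). Their methods name limma in R, with loess, averaged probe copies and dye-swaps as blocks.

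Values here were computed in R 4.3.3 (limma 3.58.1). Background was corrected by normexp (offset 50), controls and spots marked as outliers (0.913% to 2.42% per array) were dropped, loess was run per array, copies of a probe were averaged and signs were turned to RA over vehicle. Each probe was fitted on 4 pair means in all 24 pairings, the largest p was kept, and Benjamini-Hochberg adjustment took in 30367 probes. The code was tested on simulated data. Accessions of transcripts led to RefSeq genes of GRCr8 for 18006 probes (59.3%), and the brightest probe stood for each gene. The number of arrays limits the precision.

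The members and lists were chosen with earlier results of these data known. Named are all 10 members, from each other list the genes at an unadjusted p under 0.01 (at most 4, by the smallest p), the 5 genes nearest to the members' median, and genes of other cell types that set a list apart. Genes beyond this rule are marked as such. The 34 alternatives cover background, normalisation, probe choice, pairing, dye order, slide row and each of 16 couples of arrays left out. For the other lists, arrays 6 and 7 and arrays 8 and 5 were left out in fits chosen after seeing the data.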

Additional observations from a re-analysis of the deposited data

Results flagged for a closer look

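Dixon's test was run on 30 measures (the 10 genes and 20 list medians) in each dye order, to find an array apart from the other 3. It marked 3 of 60 groups, and chance marks about 1 in 20. *Slc1a2* was at -0.2805 (log2 ratio) on array 1, where the other arrays with RA in Cy5 gave -0.04 to 0.00. For the choroid plexus list the median was -1.3669 on array 6, where the other arrays with RA in Cy5 gave 0.20 to 0.46. On array 7 it was -1.4249, where the other arrays with RA in Cy3 gave 0.08 to 0.27.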

How the results depend on the processing

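Under 34 alternatives the number of members below 0 stayed between 6 and 9. Their median log2 fold change ran from -0.17 to -0.05 and moved beyond its spread over arrays only with the arrays with RA in Cy3 alone, where it was -0.17. The number of members at an unadjusted p under 0.01 in limma, 2 in the report, was 0 with plain background subtraction, with Agilent's log ratio and in slide row 1 alone. It was 1 with the arrays with RA in Cy5 alone and with the mean over all probes of a gene, and 4 in slide row 2 alone and in the single pairing that called most probes. In leave-one-out fits, each without 1 array of each dye order, it was 0 to 4. The share of all named genes at this threshold was not taken under the alternatives. *Gja1* passed in 4 of 16 leave-one-out fits and 14 of 18 other alternatives, with log2 fold changes from -0.32 to -0.11 over all of them. *Slc4a4* passed in 7 of 16 and 13 of 18, with -0.38 to -0.18. *Gjb6* ran from -0.61 to -0.05.

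Reversals were found in genes whose mean was near 0, and in *Aldh1l1*. *Slc1a2*, at 0.00, was at -0.0019 with plain subtraction, -0.0198 with Agilent's log ratio, -0.0047 with MAD scaling, -0.0849 with RA in Cy5 alone, -0.0669 in row 1 and -0.0001 with the mean over probes, and at -0.0374 to 0.0651 in leave-one-out fits. *Kcnj10* was at 0.0165 with Agilent's log ratio, 0.0216 with RA in Cy3 alone and 0.0176 in row 2, and at -0.0646 to 0.0502 in leave-one-out fits. With RA in Cy5 alone *Slc1a3* was at 0.0844, *Glul* at -0.0249 and *Aqp4* at -0.0247. In row 1 *Glul* was at -0.0299 and *Aldh1l1* at 0.0056. *Kcnj10* was not tested among probes well above background. Except where a single dye order, row or probe was taken by construction, the cause was not tested. Signals near background limit *Kcnj10*.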
